A study of Mus musculus with 11 samples.

Results

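Heat shock proteins and their DNAJ co-chaperones were described in microglia, the macrophages that live in the brain, grown from adult mice and given a Toll-like receptor 2 ligand, interferon-gamma or both. The members were every gene whose name begins with Hsp or Dnaj and then a, b, d, e or h (Hsp) or a, b or c (Dnaj), leaving out names with -ps. Among 34745 listed genes, 81 carried such a name, 10 of these were -ps names, and 59 of the other 71 reached an FPKM of at least 1 in at least 2 of the 11 libraries. FPKM is a read number scaled to transcript length and library size, so levels can be set side by side between genes. The 59 members were 22 heat shock protein genes, 4 Dnaja, 10 Dnajb and 23 Dnajc genes. Read letter by letter the rule passes over the Hsp90 genes, which are given near the end with the other chaperone systems.

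Microglia were taken from cerebra of C57BL/6 mice that were 6 to 8 weeks old and had grown for 10 to 14 days in medium holding TGF-beta1 (5 ng/ml) and M-CSF (10 ng/ml), which all 4 groups shared. The Pam3CSK4+IFN-gamma group (n = 3, called combined here) received Pam3CSK4, a synthetic lipopeptide ligand of Toll-like receptor 2, at 100 ng/ml for 24 h, followed by a further 24 h with 20 ng/ml IFN-gamma. The IFN-gamma group (n = 3) received IFN-gamma alone, the Pam3CSK4 group (n = 2) Pam3CSK4 alone, and the Control group (n = 3) neither. The labels do not say whether Pam3CSK4 was washed out, nor when Control and Pam3CSK4 cells were harvested. Between the combined and Pam3CSK4 groups, IFN-gamma and a longer time since Pam3CSK4 therefore cannot be told apart. The labels name no separate animals or cultures, so p-values measure the spread between these libraries, which may be technical.

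HSP70 proteins bind exposed stretches of unfolded clients and release them in a cycle driven by ATP. DNAJ proteins bring clients to HSP70 and start ATP hydrolysis through their J domain, and HSP110 proteins speed the exchange of ADP for ATP that ends the cycle. Separate HSP70 and DNAJ sets work in the cytosol, the endoplasmic reticulum (ER) and the mitochondria, and small heat shock proteins hold unfolded clients without ATP. Inducible members are transcribed by heat shock factors or, in the ER, by the factors of the unfolded protein response, and in macrophages Toll-like receptor ligands are known to engage that response.

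Library totals lay between 15033702 and 20321017 counts. All 10 microglial marker genes were at 1 FPKM or more in every library. The smooth muscle actin gene Acta2 was at 5 FPKM or more in 3 libraries, at 10.5 FPKM in combined replicate 3, 44.1 FPKM in IFN-gamma replicate 1 and 865 FPKM in Control replicate 3. The summed level of the 10 mural and fibroblast markers was 55.7, 121 and 2219 FPKM in those libraries and between 1.16 and 3.84 FPKM in the other 8, where Acta2 was 0.210 to 1.41 FPKM. Every result below is therefore given with all 11 libraries and, where it changes the call, without these 3, which leaves 2 libraries a group. In bulk RNA, fewer cells of a type and less RNA per cell cannot be told apart.

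Together the members took 0.510 to 0.551% of the counts in combined libraries, 0.503 to 0.535% in IFN-gamma libraries, 0.599 and 0.620% in Pam3CSK4 libraries and 0.443, 0.466 and 0.599% in Control libraries, the last value being Control replicate 3. Hspa5, the ER HSP70 also called BiP, had the highest mean level of the members (172 FPKM over the 11 libraries), followed by Hspa8, the constitutive cytosolic HSP70 (129 FPKM). At the other end stood Dnajb13 (0.681 FPKM), a J protein of cilia and sperm flagella. In 46 members every library was at 1 FPKM or more. Dnajb13 reached 1 FPKM in Control libraries alone, and Hspa1a and Hspa1l in combined libraries alone, so these 3 passed the filter through the group where they are high. Hspa1b reached 1 FPKM in every combined library and otherwise only in Control replicate 3 (1.12 FPKM), so it too needed the combined group to pass. The 12 genes below the filter were Dnajb3, Dnajb7, Dnajb8, Dnajc22, Dnajc28, Dnajc5b, Dnajc5g, Dnajc6, Hspa12b, Hspb2, Hspb7 and Hspb9. Just inside the rule, Hspbap1 reached 1 FPKM in 2 libraries, at 1.00 FPKM in IFN-gamma replicate 2 and 1.72 FPKM in Control replicate 3. Just outside it, Hspb2 reached 2.53 FPKM in Control replicate 3 alone and Dnajc28 1.14 FPKM in Control replicate 2 alone. Dnajc6, the neuronal auxilin that uncoats clathrin vesicles, did not exceed 0.00881 FPKM in any library.

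**Figure D1:**
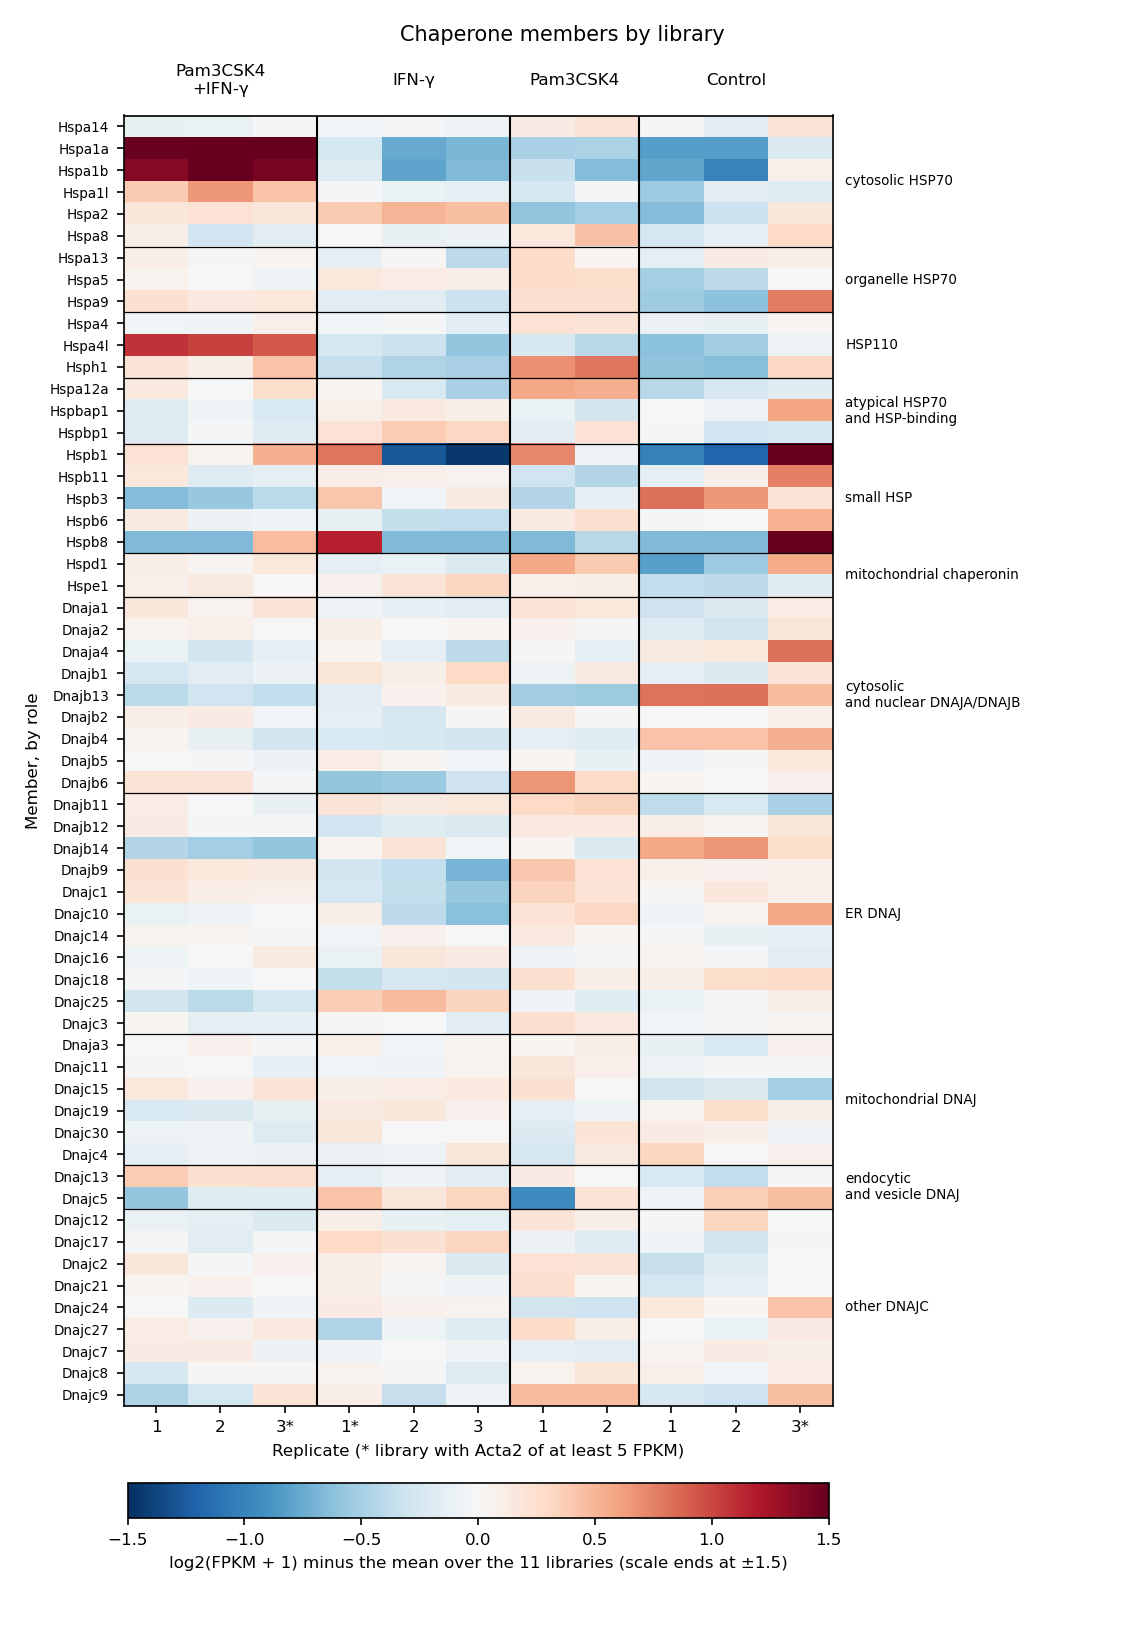
Level of each of the 59 members (rows, grouped by role) in the 11 libraries (columns), as log2(FPKM + 1) minus the member's mean over the libraries, with stars on the 3 libraries with Acta2 of at least 5 FPKM. Hspa1a, Hspa1b and Hspa4l stand out in the 3 combined libraries, and Hspb1 and Hspb8 in Control replicate 3, where they measured 17.0 and 15.7 FPKM.

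Changes were tested on the counts with edgeR's quasi-likelihood test over 10938 genes, and a change is called where the Benjamini-Hochberg adjusted p is under 0.05. Unless another fit is named, a call or its absence is that of this edgeR fit with all 11 libraries. After Pam3CSK4 alone, 12 members were higher and 6 lower than in Control, where 20.0% of all tested genes were called higher and 21.4% lower. After IFN-gamma alone 11 were higher and 9 lower, against backgrounds of 20.0% and 21.6%. Set against IFN-gamma, the combined group had 13 members higher and 8 lower, against 17.0% and 17.2% of all genes. Set against Pam3CSK4, it had 3 members higher and 0 lower, against 6.06% and 3.04%. The share of the 59 members called higher was 20.3, 18.6, 22.03 and 5.08% in that order, near the background, and the share called lower was 10.2, 15.3, 13.6 and 0%, below it, a difference that was not tested. The median log2 change of the members was between -0.03 and 0.09 in these 4 comparisons. Beside the 0 members called lower than in Pam3CSK4 by edgeR, 1 was lower at an unadjusted p under 0.05, and DESeq2 called 0.

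The calls depended on the libraries with Acta2. Without those 3, Pam3CSK4 had 19 members higher and 7 lower than Control (background 26.3% and 27.4%), and IFN-gamma 15 higher and 12 lower (22.9% and 24.3%). The combined group then had 17 higher and 8 lower than IFN-gamma (20.6% and 19.6%), and 7 higher and 2 lower than Pam3CSK4 (11.0% and 8.43%). Of the 18 members called after Pam3CSK4 with all libraries, 16 kept their call and direction, as did 18 of 20 after IFN-gamma, 19 of 21 for combined against IFN-gamma and 3 of 3 for combined against Pam3CSK4. Scaling by library totals in place of TMM moved the median change of all genes in IFN-gamma against Control to -0.18, against -0.07, and in combined against Pam3CSK4 to -0.10, against 0.00. With that scaling 9 members were higher and 8 lower after Pam3CSK4 (background 19.6% and 21.7%), and 8 higher and 10 lower after IFN-gamma (16.2% and 28.4%).

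The inducible cytosolic HSP70 genes were at their highest in the combined group. Hspa1a, on chromosome 17 (34969190 to 34972156, mm10), measured 4.09, 4.28 and 4.23 FPKM in combined libraries, 0.508, 0.0721 and 0.134 FPKM in IFN-gamma libraries, 0.295 and 0.304 FPKM in Pam3CSK4 libraries and 0.0224, 0.0213 and 0.565 FPKM in Control libraries. No combined library overlapped any other library. Counts behind these levels were 245, 258 and 245 in combined libraries, 25, 4 and 6 after IFN-gamma, 16 and 14 after Pam3CSK4 and 1, 1 and 30 in Control. Hspa1a passed the filter through the combined group alone, so its changes are given as a description and support nothing. The gene rose by 4.14 ± 1.02 on the log2 scale (SE) in the combined group against IFN-gamma (adjusted p = 0.0119), and this call held in each of the 11 fits that left out 1 library. Against Pam3CSK4 the log2 difference was 3.91 ± 1.19 with all libraries (adjusted p = 0.0767), and it was called without the 3 libraries (3.91, adjusted p = 2.71e-05) and, with all libraries, by DESeq2 and limma. Those 8 libraries also gave a rise of 2.14 after IFN-gamma (adjusted p = 0.0430) and 3.57 after Pam3CSK4 (adjusted p = 0.000701) against Control, from counts of 1 and 1 in Control, so these folds are loosely set. The highest values outside the combined group were in Control replicate 3 and IFN-gamma replicate 1, 2 of the libraries with Acta2.

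Its neighbour Hspa1b, on the same chromosome (34956436 to 34959238), encodes a nearly identical protein and was also highest in the combined group. Levels were 4.21, 4.78 and 4.37 FPKM in combined libraries, 0.752, 0.153 and 0.260 FPKM after IFN-gamma, 0.585 and 0.276 FPKM after Pam3CSK4 and 0.166, 0 and 1.12 FPKM in Control. Without the combined group Hspa1b would not have passed the filter, so its changes are given as a description and support nothing. The change against IFN-gamma was 3.52 ± 1.08 (adjusted p = 0.0316), a call that ended without IFN-gamma replicate 2 or 3 or any combined replicate, with adjusted p up to 0.101. With the 3 libraries left out, Hspa1b was also higher in the combined group than after Pam3CSK4 by 3.47 (adjusted p = 0.00170) and after Pam3CSK4 than in Control by 2.33 (adjusted p = 0.0404). Of the stretches of 50 bases in the Hspa1a transcript, 58.8% occur unchanged in Hspa1b, and how the counting shared such reads is not given in the sources used here, so the split between the copies is uncertain. The third gene of this cluster, Hspa1l, is a testis-enriched HSP70 and measured 1.38, 1.85 and 1.45 FPKM in combined libraries against 0.780, 0.693 and 0.643 FPKM after IFN-gamma. Hspa1l passed the filter through combined libraries alone, so its changes are given as a description. It rose by 1.14 ± 0.33 (adjusted p = 0.0249), a call lost without any of the 3 IFN-gamma replicates or combined replicate 2 (adjusted p up to 0.0881). Against Pam3CSK4, at 0.531 and 0.781 FPKM, its log2 difference was 1.36 ± 0.38 (adjusted p = 0.0581), called without the 3 libraries (1.43, adjusted p = 0.0335).

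The promoter windows of Hspa1a and Hspa1b are shown because the genes moved together and share reads. In RefSeq's windows on GRCm38.p6 (250 bases before to 50 after the start, both on the minus strand) they differ at 4 of 300 positions, C44T, T47C, T249G and C276T, counted from the first base of the window with the Hspa1a base first. Heat shock factors bind repeats of GAA and its inverse TTC. Capitals mark a 2-unit repeat, searched as GAANNTTC and TTCNNGAA, which read the same on both strands. The 120 bases before each start are chr17:34972157-34972276 for Hspa1a and chr17:34959239-34959358 for Hspa1b, and T249G is the difference that falls in them.
Hspa1a: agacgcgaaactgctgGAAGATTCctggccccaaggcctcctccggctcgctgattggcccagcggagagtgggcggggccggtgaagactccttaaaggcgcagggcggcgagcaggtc
Hspa1b: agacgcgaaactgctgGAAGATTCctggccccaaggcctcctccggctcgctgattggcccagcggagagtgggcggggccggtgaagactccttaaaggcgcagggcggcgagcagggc
Such a pair lay in 15.1% of all 32851 windows and in 17 of the 66 windows of the 50 members that RefSeq's table covers. It is therefore a common match, and it is a description of these letters, not a bound site. The 9 members with no window were Dnajc11, Dnajc12, Dnajc18, Dnajc2, Dnajc30, Dnajc5, Hspa13, Hspa8 and Hspa9.

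The other cytosolic HSP70 genes behaved differently. Hspa2, an HSP70 required for spermatogenesis, measured 3.52, 3.67 and 3.54 FPKM in combined libraries, 4.28, 4.76 and 4.52 FPKM after IFN-gamma, 1.67 and 1.84 FPKM after Pam3CSK4 and 1.56, 2.23 and 3.52 FPKM in Control. IFN-gamma libraries exceeded every other library, and combined libraries exceeded both Pam3CSK4 libraries. The gene rose by 1.01 ± 0.22 after IFN-gamma (adjusted p = 0.00545) and by 1.13 ± 0.26 in the combined group against Pam3CSK4 (adjusted p = 0.0232). The first call held without each library in turn, while the second ended without any 1 Pam3CSK4 or combined library (adjusted p up to 0.177) and with total-count scaling. Hspa8 measured 136, 104 and 114 FPKM in combined libraries, 128, 118 and 120.1 FPKM after IFN-gamma, 143 and 172 FPKM after Pam3CSK4 and 107, 117 and 156 FPKM in Control, and no change was called with all libraries. In the 8 libraries with low Acta2 it rose by 0.43 after Pam3CSK4 (adjusted p = 0.0283). Hspa14, which pairs with Dnajc2 on the ribosome, lay between 2.82 and 3.95 FPKM in every library and had no call with all libraries. After Pam3CSK4 it rose by 0.26 without the 3 libraries (adjusted p = 0.0465), and it was also called there without Control replicate 3 alone.

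**Figure D2:**
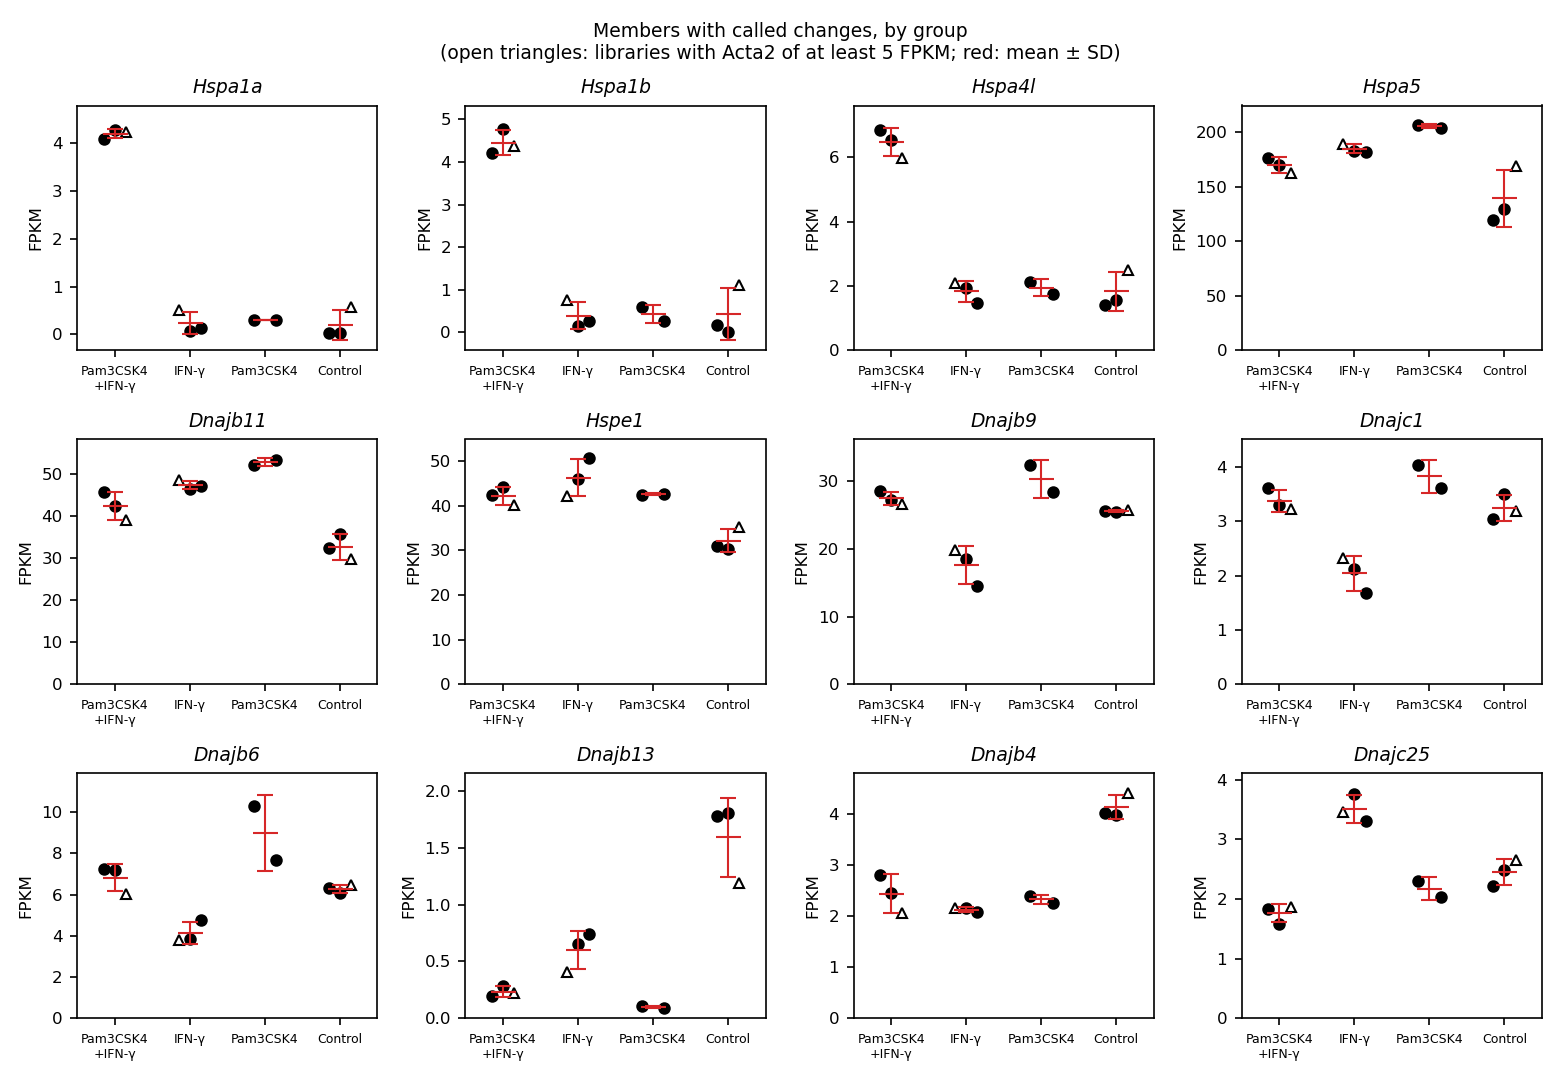
FPKM of 12 members in each library (points) with the group mean and SD (red), in the order combined, IFN-gamma, Pam3CSK4 and Control, with open triangles for the 3 libraries with Acta2 of at least 5 FPKM. Hspa1a, Hspa1b and Hspa4l are separated from all other groups in the combined group, and Dnajb4 is lower in each treated library (2.06 to 2.81 FPKM) than in each Control library (3.98 to 4.40 FPKM).

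Among the HSP110 genes, which act as nucleotide exchange factors of HSP70, Hspa4l gave the clearest difference of the combined group. It measured 6.85, 6.55 and 5.99 FPKM in combined libraries, 2.09, 1.95 and 1.46 FPKM after IFN-gamma, 2.13 and 1.77 FPKM after Pam3CSK4 and 1.41, 1.57 and 2.51 FPKM in Control. The lowest combined library was above every other library. The gene rose by 1.81 ± 0.18 against IFN-gamma (adjusted p = 6.98e-05) and by 1.84 ± 0.21 against Pam3CSK4 (adjusted p = 0.000543). Neither agent alone gave a called change against Control, at 0.12 ± 0.18 after IFN-gamma (adjusted p = 0.616) and 0.09 ± 0.20 after Pam3CSK4 (adjusted p = 0.734). The Pam3CSK4 effect with IFN-gamma minus the effect without it, the interaction, was 1.72 ± 0.27 (adjusted p = 0.00372), and it was called in all 19 alternative fits.

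Hsph1, the inducible HSP110, followed Pam3CSK4 instead. It measured 4.83, 4.37 and 5.79 FPKM in combined libraries, 2.99, 2.69 and 2.61 FPKM after IFN-gamma, 7.14 and 7.81 FPKM after Pam3CSK4 and 2.33, 2.26 and 5.25 FPKM in Control, the last being Control replicate 3. Both Pam3CSK4 libraries were above all others. The rise after Pam3CSK4 was 1.21 ± 0.27 (adjusted p = 0.00621) and 1.64 without the 3 libraries (adjusted p = 3.16e-06). Against IFN-gamma the combined group was higher by 0.85 ± 0.25 (adjusted p = 0.0260), a call lost without any IFN-gamma library or without combined replicate 1 or 3 (adjusted p up to 0.0881). In the 8 libraries with low Acta2, Hsph1 rose by 0.27 after IFN-gamma (adjusted p = 0.0368), the combined group was lower than Pam3CSK4 (log2 change -0.59, adjusted p = 0.00219), and the interaction of -0.86 was called (adjusted p = 0.00213). Hspa4, the constitutive member of the family, lay between 41.4 and 53.9 FPKM and rose by 0.24 ± 0.08 after Pam3CSK4 (adjusted p = 0.0293), a small change that ended in 6 of the 19 alternative fits, among them those without either Pam3CSK4 library, Control replicate 1 or 2, or combined replicate 2 (adjusted p up to 0.122).

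A longer heat shock element of 3 alternating GAA and TTC units, each 2 bases from the next, was rare. It lay in 0.603% of all windows and in 6 of the 66 member windows, those of Dnajb6, Hspd1, Hspe1 and Hsph1. Dnajb6 and Hsph1 each count with 2 overlapping windows that hold the same element, so these are not 6 separate elements. Each stretch of 30 bases below has the element in capitals, on the gene's own strand. The coordinates are chr5:149636280-149636309 (minus) for Hsph1, chr5:29735843-29735872 (plus) for Dnajb6 and chr1:55088050-55088079 (plus) for Hspe1.
Hsph1: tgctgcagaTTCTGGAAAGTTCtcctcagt
Dnajb6: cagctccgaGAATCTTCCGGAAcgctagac
Hspe1: cacggtccgTTCTAGAACCTTCCGGAAggc
The Hspe1 element is also that of Hspd1, which starts on the opposite strand (chr1:55088056-55088085, minus), and runs to 4 units. In Hsph1 the element begins 16 or 37 bases after RefSeq's start, depending on which of 2 annotated starts is used. In the other genes it lies before RefSeq's start, though the Dnajb6 and Hspd1 stretches overlap annotated exons of those same genes.
Hspd1: cgcggggccTTCCGGAAGGTTCTAGAAcgg
The 4 genes did not share 1 pattern. Hsph1 and Dnajb6 rose after Pam3CSK4, Dnajb6 fell after IFN-gamma, Hspe1 rose after either agent, and Hspd1 had no call by edgeR with all libraries. Hspa4l held neither the pair nor the longer element in its window, which says nothing about heat shock factors at other positions.

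Hspa12a and Hspbp1 changed with different single agents. Hspa12a, a distant HSP70 relative, measured 1.88, 1.62 and 2.13 FPKM in combined libraries, 1.67, 1.23 and 0.867 FPKM after IFN-gamma, 2.92 and 2.82 FPKM after Pam3CSK4 and 0.951, 1.20 and 1.30 FPKM in Control. Both Pam3CSK4 libraries exceeded all others, and the rise against Control was 1.31 ± 0.23 (adjusted p = 0.00173). With the 3 libraries left out it was also higher in the combined group than after IFN-gamma (0.72, adjusted p = 0.0196). Hspbp1, an inhibitor and exchange factor of HSP70, was 12.2, 13.7 and 13.0 FPKM after IFN-gamma against 10.4, 8.27 and 8.42 FPKM in Control, a rise of 0.62 ± 0.15 (adjusted p = 0.00952). In the combined group it was 8.89, 10.0 and 8.90 FPKM, lower than after IFN-gamma by 0.49 ± 0.15 (log2 change -0.49, adjusted p = 0.0316). That fall was lost without IFN-gamma replicate 2 or 3 or combined replicate 1 or 3 (adjusted p up to 0.101). Hspbap1, which binds Hspb1, lay between 0.491 and 1.72 FPKM and had no call with all libraries. It was called after Pam3CSK4 without Control replicate 2 and for combined against IFN-gamma without Control replicate 3.

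In the ER, Hspa5 and its J partner Dnajb11 rose with either agent, with no further called rise in the combined group. Hspa5 measured 177, 170.3 and 163 FPKM in combined libraries, 189, 183 and 182 FPKM after IFN-gamma, 207 and 204 FPKM after Pam3CSK4 and 119, 129.6 and 169 FPKM in Control. Every library treated with 1 agent exceeded every Control library. The rise was 0.52 ± 0.09 after IFN-gamma (adjusted p = 0.00191) and 0.55 ± 0.10 after Pam3CSK4 (adjusted p = 0.00221). The combined group differed from neither by a called amount, with log2 differences of -0.13 from IFN-gamma (adjusted p = 0.316) and -0.17 from Pam3CSK4 (adjusted p = 0.406). The interaction was -0.68 ± 0.14 (adjusted p = 0.0113), called in 18 of 19 alternative fits and lost without Pam3CSK4 replicate 2 (adjusted p = 0.0555).

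Dnajb11, which hands unfolded clients to Hspa5, measured 45.6, 42.2 and 39.0 FPKM in combined libraries, 48.4, 46.4 and 47.1 FPKM after IFN-gamma, 52.0 and 53.3 FPKM after Pam3CSK4 and 32.2, 35.7 and 29.8 FPKM in Control. No treated library overlapped Control. It rose by 0.63 ± 0.12 after IFN-gamma (adjusted p = 0.00215) and by 0.67 ± 0.13 after Pam3CSK4 (adjusted p = 0.00260). The interaction was -0.84 ± 0.17 (adjusted p = 0.0119) and was lost without Pam3CSK4 replicate 2 alone (adjusted p = 0.0603). Dnajc3, a luminal co-chaperone of Hspa5, was between 27.3 and 37.1 FPKM, and Hspa13, an atypical HSP70 of the ER, between 5.69 and 9.65 FPKM, with no call by edgeR in either gene with or without the 3 libraries. DESeq2 called Dnajc3 after Pam3CSK4. The windows of Hspa5 and Dnajc3 hold the ER stress element, CCAAT and CCACG with 9 bases between them, searched on both strands and present in 0.119% of all windows. These were 2 of 66 member windows, and the 30 bases are chr2:34772019-34772048 (plus) for Hspa5 and chr14:118937821-118937850 (plus) for Dnajc3, with the element in capitals.
Hspa5: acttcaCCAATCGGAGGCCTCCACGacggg
Dnajc3: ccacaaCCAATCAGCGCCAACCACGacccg
Of these genes with the same element, Hspa5 had called changes by edgeR and Dnajc3 had none.

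Further J proteins of the ER, Dnajb9, Dnajc1, Dnajb12 and Dnajc18, fell after IFN-gamma and were higher in the combined group than after IFN-gamma. Dnajb9, a J protein that brings Hspa5 to the stress sensor IRE1, measured 28.5, 27.2 and 26.7 FPKM in combined libraries, 19.9, 18.5 and 14.6 FPKM after IFN-gamma, 32.4 and 28.4 FPKM after Pam3CSK4 and 25.6, 25.5 and 25.7 FPKM in Control. The IFN-gamma libraries were below all others. It fell by 0.44 ± 0.11 after IFN-gamma (log2 change -0.44, adjusted p = 0.00856) and was higher in the combined group than after IFN-gamma by 0.63 ± 0.11 (adjusted p = 0.00151). Dnajc1, an ER membrane J protein near the translocation channel, measured 3.61, 3.29 and 3.22 FPKM in combined libraries against 2.32, 2.12 and 1.69 FPKM after IFN-gamma, and 4.04 and 3.61 FPKM after Pam3CSK4 against 3.04, 3.49 and 3.20 FPKM in Control. Its log2 change was -0.57 ± 0.12 after IFN-gamma (adjusted p = 0.00399) and 0.72 ± 0.12 for combined against IFN-gamma (adjusted p = 0.00143). These 4 calls held without each library in turn.

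The interaction was 0.40 for Dnajb9 (adjusted p = 0.113) and 0.50 for Dnajc1 (adjusted p = 0.0839) with all libraries, and both were called without the 3 libraries, at 0.55 (adjusted p = 0.0359) and 0.68 (adjusted p = 0.0219). Dnajb12 and Dnajc18, J proteins of the ER membrane, moved the same way by less. Dnajb12 changed by -0.29 after IFN-gamma (adjusted p = 0.0135) and by 0.29 in the combined group against IFN-gamma (adjusted p = 0.0173). Dnajc18 changed by -0.50 (adjusted p = 0.00138) and 0.32 (adjusted p = 0.0175). The second call ended for both genes without IFN-gamma replicate 1 or combined replicate 1, and for Dnajc18 without the 3 libraries. Dnajc10, an ER reductase, ranged from 7.63 to 19.0 FPKM, with its top value in Control replicate 3, and no change was called with all libraries. In the 8 libraries with low Acta2 it fell after IFN-gamma (log2 change -0.48, adjusted p = 0.00640) and was higher by 0.46 in the combined group than after IFN-gamma (adjusted p = 0.00943).

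Dnajb14, a J protein of the ER membrane, and Dnajc25, a membrane J protein listed with it here, did not follow this pattern. Dnajb14 was 4.42, 4.16 and 3.91 FPKM in combined libraries, 6.52, 7.40 and 6.13 FPKM after IFN-gamma, 6.55 and 5.30 FPKM after Pam3CSK4 and 9.84, 10.6 and 7.76 FPKM in Control. Combined libraries were below all others and Control libraries above all others. Its log2 change was -0.70 ± 0.18 after Pam3CSK4 (adjusted p = 0.0135, lost without Pam3CSK4 replicate 2 at 0.117) and -0.69 ± 0.16 for combined against IFN-gamma (adjusted p = 0.00946). After IFN-gamma alone the change was -0.41 (adjusted p = 0.0693), and -0.53 without the 3 libraries (adjusted p = 0.00762). Dnajc25 was 1.84, 1.59 and 1.86 FPKM in combined libraries, 3.45, 3.76 and 3.32 FPKM after IFN-gamma, 2.31 and 2.03 FPKM after Pam3CSK4 and 2.21, 2.48 and 2.65 FPKM in Control. It rose by 0.62 ± 0.10 after IFN-gamma (adjusted p = 0.000886), fell in the combined group against IFN-gamma, with a log2 change of -1.003 ± 0.10 (adjusted p = 6.45e-05), and had an interaction of -0.82 ± 0.14 (adjusted p = 0.00668). Its locus shares 22364 bases with Gm20503, so reads of the pair may not be told apart, as is so for Dnajc1 and Mllt10 (16735 bases), Dnaja3 and Coro7 (39789 bases) and Dnajc19 and Fxr1 (14303 bases). Dnajc14 and Dnajc16 stayed between 16.5 and 20.1 FPKM and between 5.83 and 7.59 FPKM. Dnajc16 was called in none of the fits, and Dnajc14 only by DESeq2 for IFN-gamma against Control.

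In mitochondria, the HSP10 gene Hspe1, the lid of the folding chamber, rose with either agent. It measured 42.5, 44.2 and 40.2 FPKM in combined libraries, 42.3, 46.0 and 50.7 FPKM after IFN-gamma, 42.5 and 42.7 FPKM after Pam3CSK4 and 30.9, 30.4 and 35.2 FPKM in Control. All treated libraries lay above all Control libraries. The rise was 0.63 ± 0.09 after IFN-gamma (adjusted p = 0.000623) and 0.39 ± 0.10 after Pam3CSK4 (adjusted p = 0.0129), the second being lost without either Pam3CSK4 library (adjusted p up to 0.0765). The interaction of -0.53 ± 0.14 (adjusted p = 0.0297) held in 10 of 19 alternative fits, and was lost without Control replicate 1 or 2, either Pam3CSK4 replicate, IFN-gamma replicate 2 or 3, or combined replicate 1 or 3 (adjusted p up to 0.113).

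Hspd1, the HSP60 barrel that Hspe1 closes, and Hspa9, the mitochondrial HSP70, turned on Control replicate 3. Hspd1 measured 51.3, 49.3 and 53.7 FPKM in combined libraries, 43.5, 44.8 and 41.1 FPKM after IFN-gamma, 71.5 and 63.5 FPKM after Pam3CSK4 and 26.7, 32.4 and 71.0 FPKM in Control. Hspa9 measured 57.4, 54.3 and 54.6 FPKM in combined libraries, 43.8, 43.7 and 39.0 FPKM after IFN-gamma, 57.7 and 58.0 FPKM after Pam3CSK4 and 33.5, 31.5 and 84.3 FPKM in Control. Control replicates 1 and 2 were below every treated library in both genes, and Control replicate 3 was the top library for Hspa9.

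With all libraries Hspd1 changed by 0.66 ± 0.28 after Pam3CSK4 (adjusted p = 0.0908) and 0.13 ± 0.26 after IFN-gamma (adjusted p = 0.711), and DESeq2 and the fit with the replicate block called the first. Without the 3 libraries it rose by 1.12 (adjusted p = 8.63e-05) and 0.60 (adjusted p = 0.00312), with an interaction of -0.91 (adjusted p = 0.00476). Hspa9 changed by 0.24 ± 0.31 (adjusted p = 0.553) and -0.10 ± 0.28 (adjusted p = 0.794) with all libraries, and rose by 0.77 (adjusted p = 0.00011) and 0.41 (adjusted p = 0.00380) without the 3. It was also higher in the combined group than after IFN-gamma by 0.42 without them (adjusted p = 0.00415). Control replicate 3 is also the library with 2219 FPKM of summed mural and fibroblast markers, and their part in these levels was not tested.

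**Figure D3:**
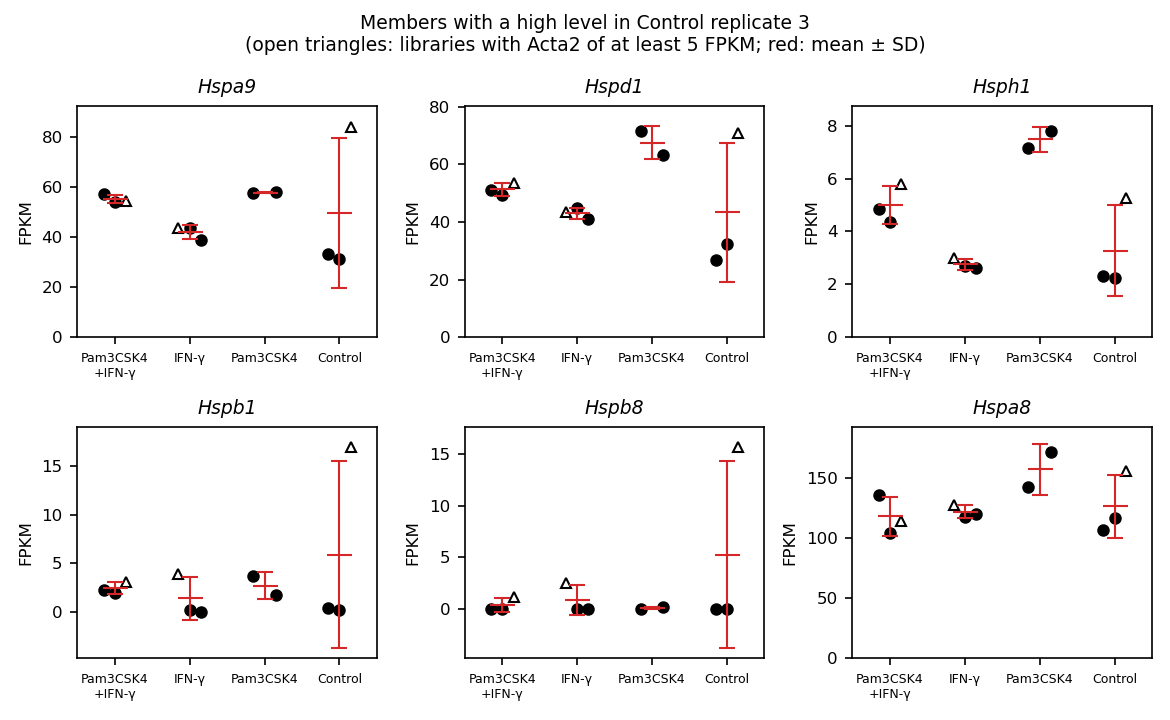
FPKM of 6 members in each library (points), with the group mean and SD (red) and open triangles for the 3 libraries with Acta2 of at least 5 FPKM. Control replicate 3 is far above Control replicates 1 and 2 in Hspa9 (84.3 against 33.5 and 31.5 FPKM), Hspd1, Hsph1, Hspb1 and Hspb8, and above them in Hspa8.

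The mitochondrial J proteins changed little. Dnajc15, a J protein of the inner membrane that restrains respiration in mouse, was 27.4, 25.7 and 28.3 FPKM in combined libraries, 26.1, 26.6 and 27.3 FPKM after IFN-gamma, 28.8 and 24.4 FPKM after Pam3CSK4 and 20.0, 20.9 and 16.9 FPKM in Control. No treated library overlapped Control. It rose by 0.56 ± 0.13 after IFN-gamma (adjusted p = 0.00869) and by 0.44 ± 0.15 after Pam3CSK4 (adjusted p = 0.0397). The second call was lost without either Pam3CSK4 library, IFN-gamma replicate 1 or 2, or any combined library (adjusted p up to 0.211), and without the 3 libraries (adjusted p = 0.0606). Dnaja3, the main mitochondrial partner of Hspa9, rose by 0.24 ± 0.07 after IFN-gamma (adjusted p = 0.0296), a call that ended without Control replicate 1 or 2, or IFN-gamma replicate 1 or 3 (adjusted p up to 0.1004), without the 3 libraries (0.0570) and with total-count scaling. Dnajc19, part of the motor that pulls proteins into the matrix, was lower in the combined group than after IFN-gamma by 0.41 ± 0.12 (log2 change -0.41, adjusted p = 0.0222), a call lost without IFN-gamma replicate 2 or combined replicate 1 or 2 (adjusted p up to 0.0833). With the 3 libraries left out it was also lower after Pam3CSK4 than in Control (-0.41, adjusted p = 0.0305). Dnajc4, Dnajc11 and Dnajc30 were called in no comparison with or without the 3 libraries.

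Among cytosolic and nuclear J proteins, Dnajb4 and Dnajb13 fell with each agent. Dnajb4, a close relative of Dnajb1, was 2.81, 2.45 and 2.06 FPKM in combined libraries, 2.16, 2.15 and 2.07 FPKM after IFN-gamma, 2.39 and 2.26 FPKM after Pam3CSK4 and 4.01, 3.98 and 4.40 FPKM in Control. The log2 change was -0.85 ± 0.10 after IFN-gamma (adjusted p = 0.000184) and -0.84 ± 0.12 after Pam3CSK4 (adjusted p = 0.000408). The combined group did not differ from either by a called amount, and the interaction was 1.03 ± 0.15 (adjusted p = 0.00301). These 3 calls held in all 19 alternative fits, and without the 3 libraries Dnajb4 was higher in the combined group than after IFN-gamma by 0.30 (adjusted p = 0.0295).

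Dnajb13 was 0.193, 0.287 and 0.224 FPKM in combined libraries, 0.410, 0.651 and 0.741 FPKM after IFN-gamma, 0.106 and 0.0939 FPKM after Pam3CSK4 and 1.78, 1.81 and 1.20 FPKM in Control, with no overlap between any pair of groups. The counts are few, at 8, 12 and 9 in combined libraries, 14, 25 and 23 after IFN-gamma, 4 and 3 after Pam3CSK4 and 55, 59 and 44 in Control. It passed the filter through Control alone, so its changes are given as a description and support nothing. The log2 change was -1.31 ± 0.32 after IFN-gamma (adjusted p = 0.00996), -3.98 ± 0.45 after Pam3CSK4 (adjusted p = 0.000126) and -1.35 ± 0.34 for combined against IFN-gamma (adjusted p = 0.0134, lost without combined replicate 1 at 0.0550). The interaction was 2.62 ± 0.54 (adjusted p = 0.0128), lost without Pam3CSK4 replicate 2 (adjusted p = 0.0676).

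Dnajb6, a J protein that keeps aggregation-prone proteins soluble, moved in opposite directions with the agents. It measured 7.24, 7.18 and 6.05 FPKM in combined libraries, 3.78, 3.86 and 4.76 FPKM after IFN-gamma, 10.3 and 7.67 FPKM after Pam3CSK4 and 6.30, 6.09 and 6.47 FPKM in Control. IFN-gamma libraries were below all others and Pam3CSK4 libraries above all others. The log2 change was -0.50 ± 0.14 after IFN-gamma (adjusted p = 0.0190), 0.50 ± 0.16 after Pam3CSK4 (adjusted p = 0.0303) and 0.71 ± 0.14 for combined against IFN-gamma (adjusted p = 0.00427). The last call held without each library in turn. The IFN-gamma call was lost when Control replicate 1, IFN-gamma replicate 1 or IFN-gamma replicate 2 was left out (adjusted p up to 0.0645), and the Pam3CSK4 call without Control replicate 1 or 2 or Pam3CSK4 replicate 1 (adjusted p up to 0.255).

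Dnajb1, the main stress-inducible J partner of cytosolic HSP70, was 15.3, 16.2 and 17.2 FPKM in combined libraries, 21.0, 19.5 and 22.8 FPKM after IFN-gamma, 17.4 and 20.3 FPKM after Pam3CSK4 and 16.8, 15.8 and 21.1 FPKM in Control. Combined libraries, where Hspa1a was highest, were below all IFN-gamma libraries. It rose by 0.35 ± 0.10 after IFN-gamma (adjusted p = 0.0242) and was lower in the combined group than after IFN-gamma by 0.39 ± 0.10 (log2 change -0.39, adjusted p = 0.0187). The rise was lost without Control replicate 1 or 2, or IFN-gamma replicate 3 (adjusted p up to 0.0966), and the fall without IFN-gamma replicate 3 or combined replicate 1 (adjusted p up to 0.0756). The interaction of -0.58 was called with the 3 libraries left out (adjusted p = 0.0398). Dnaja1, another partner of cytosolic HSP70, rose by 0.37 ± 0.10 after Pam3CSK4 (adjusted p = 0.0150) and by 0.30 ± 0.09 in the combined group against IFN-gamma (adjusted p = 0.0270). The first call was lost without either Pam3CSK4 library (adjusted p up to 0.0866), the second without any IFN-gamma library or combined replicate 1 or 3 (adjusted p up to 0.0935). Dnaja4 fell after IFN-gamma by 0.67 ± 0.22 (log2 change -0.67, adjusted p = 0.0319), lost when Control replicate 3, IFN-gamma replicate 2 or IFN-gamma replicate 3 was left out (adjusted p up to 0.112). Dnaja2, at 41.1 to 56.5 FPKM, rose by 0.31 after IFN-gamma without the 3 libraries (adjusted p = 0.0145) and was not called by edgeR with them (0.23, adjusted p = 0.0515), while DESeq2 and the edgeR fits with other filters called it. Dnajb5 was called in none of the fits, and Dnajb2 only for combined against IFN-gamma without IFN-gamma replicate 3.

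The small heat shock proteins were few and low, and their values followed single libraries. Hspb1, a stress-inducible holdase also abundant in muscle cells, measured 2.30, 1.93 and 3.10 FPKM in combined libraries, 3.94, 0.175 and 0.0361 FPKM after IFN-gamma, 3.67 and 1.72 FPKM after Pam3CSK4 and 0.399, 0.241 and 17.0 FPKM in Control. The top library within the combined, IFN-gamma and Control groups was in each case the one with Acta2. With all libraries the change after Pam3CSK4 was -1.03 ± 1.77 (adjusted p = 0.666). In the 8 libraries with low Acta2 it was 3.00 (adjusted p = 0.00145), and the combined group was higher than IFN-gamma by 4.18 (adjusted p = 0.000953). Counts in those libraries were 11 and 7 in Control and 6 and 1 after IFN-gamma, so these folds are loosely set. Hspb8, which works with Bag3, was listed at 0, 0 and 1.17 FPKM in combined libraries, 2.53, 0 and 0 FPKM after IFN-gamma, 0 and 0.180 FPKM after Pam3CSK4 and 0, 0 and 15.7 FPKM in Control. Its 3 highest libraries were the 3 with Acta2, so no fold is given.

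Hspb3, first known from muscle, was 0.952, 1.07 and 1.31 FPKM in combined libraries, 3.09, 1.99 and 2.37 FPKM after IFN-gamma, 1.26 and 1.81 FPKM after Pam3CSK4 and 4.43, 3.80 and 2.50 FPKM in Control. Its log2 change was -1.25 ± 0.36 after Pam3CSK4 (adjusted p = 0.0219, lost without Control replicate 1 or 2 or Pam3CSK4 replicate 1, up to 0.145) and -1.16 ± 0.32 for combined against IFN-gamma (adjusted p = 0.0206, lost without IFN-gamma replicate 1 or combined replicate 1 or 2, up to 0.0768). Without the 3 libraries it was also lower after IFN-gamma than in Control (-0.86, adjusted p = 0.0362). Hspb11, a subunit of the intraflagellar transport machinery, was 1.04 and 0.850 FPKM after Pam3CSK4 against 1.27, 1.67 and 3.24 FPKM in Control, the last in replicate 3. The change of -1.10 ± 0.34 (adjusted p = 0.0280) was lost without the 3 libraries (-0.70, adjusted p = 0.0582) and without either Pam3CSK4 library. Hspb6 was 0.886, 0.590 and 0.573 FPKM after IFN-gamma against 1.01, 1.03 and 1.92 FPKM in Control, a change of -0.83 ± 0.26 (adjusted p = 0.0296), lost when Control replicate 3, IFN-gamma replicate 2 or IFN-gamma replicate 3 was left out (adjusted p up to 0.0960). In the 8 libraries with low Acta2 it was higher in the combined group than after IFN-gamma (0.86, adjusted p = 0.0124).

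The remaining Dnajc genes have roles outside general folding. Dnajc13, an endosomal J protein that works with Hspa8 on clathrin coats, was 10.6, 9.49 and 9.68 FPKM in combined libraries, 7.15, 7.62 and 7.01 FPKM after IFN-gamma, 8.75 and 7.92 FPKM after Pam3CSK4 and 6.64, 5.92 and 7.87 FPKM in Control. Combined libraries exceeded all others. It rose by 0.44 ± 0.08 against IFN-gamma (adjusted p = 0.00312), a call that held without each library in turn. Against Pam3CSK4 the rise was 0.36 ± 0.09 (adjusted p = 0.0447) and was called in 4 of 19 alternative fits, being lost without any 1 library other than Control replicate 2 or 3 (adjusted p up to 0.291). The rise of Pam3CSK4 over Control was 0.28 ± 0.09 (adjusted p = 0.0358) and was called in 9 of 19, lost without Control replicate 1 or 2, either Pam3CSK4 library, IFN-gamma replicate 3 or combined replicate 2 or 3 (adjusted p up to 0.210). IFN-gamma alone gave a rise of 0.28 with the 3 libraries left out (adjusted p = 0.0394). Dnajc5, a vesicle J protein that guards SNARE proteins, ranged from 3.65 to 11.2 FPKM, with 3.65 and 9.34 FPKM in the Pam3CSK4 libraries, and had no call by edgeR with all libraries. It was called for combined against IFN-gamma by DESeq2 and without either Pam3CSK4 library, and for Pam3CSK4 against Control without Pam3CSK4 replicate 2.

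Dnajc24, needed for diphthamide synthesis, was 2.03 and 1.95 FPKM after Pam3CSK4 against 3.10, 2.76 and 3.97 FPKM in Control, and fell by 0.72 ± 0.16 (log2 change -0.72, adjusted p = 0.00634). Dnajc17, a nuclear J protein linked to splicing, was 5.15, 4.88 and 5.28 FPKM after IFN-gamma against 3.80, 3.14 and 3.97 FPKM in Control, and rose by 0.59 ± 0.13 (adjusted p = 0.00633). These 2 calls held without each library in turn. In the combined group Dnajc17 was 3.89, 3.44 and 3.93 FPKM, lower than after IFN-gamma by 0.45 ± 0.13 (log2 change -0.45, adjusted p = 0.0267), a call lost without IFN-gamma replicate 3 or any combined library (adjusted p up to 0.0972). Dnajc2, the ribosome-bound partner of Hspa14, rose by 0.42 ± 0.11 after Pam3CSK4 (adjusted p = 0.0117, lost without either Pam3CSK4 library, up to 0.0632) and by 0.28 ± 0.10 after IFN-gamma (adjusted p = 0.0468, called in 6 of 19 alternative fits and lost without the 3 libraries at 0.0960). Dnajc21, a ribosome assembly factor, rose by 0.36 ± 0.11 after Pam3CSK4 (adjusted p = 0.0296, lost without Control replicate 1 or Pam3CSK4 replicate 1, up to 0.254), and Dnajc27, which joins a J domain to a small GTPase, was higher by 0.59 ± 0.19 in the combined group than after IFN-gamma (adjusted p = 0.0405, called in 7 of 19 and lost without the 3 libraries at 0.0886). Dnajc8 and Dnajc12 were called in none of the fits. Dnajc7 and Dnajc9 were not called by edgeR with all libraries. With all libraries Dnajc7 was called after Pam3CSK4 by limma and with total-count scaling, and for combined against Pam3CSK4 by DESeq2, and Dnajc9 after Pam3CSK4 with the replicate block. In the 8 libraries with low Acta2, Dnajc9, a histone co-chaperone, rose by 0.76 after Pam3CSK4 (adjusted p = 0.00433) while Dnajc7, a co-chaperone of HSP70 and HSP90, fell (log2 change -0.31, adjusted p = 0.0109). Those fits also gave combined against Pam3CSK4 changes of -0.80 for Dnajc9 (adjusted p = 0.00920) and 0.40 for Dnajc7 (adjusted p = 0.00933), with interactions of -0.96 (adjusted p = 0.0163) and 0.46 (adjusted p = 0.0186).

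The interaction term asked whether Pam3CSK4 acted differently when IFN-gamma followed. Harvest times of Control and Pam3CSK4 cells are not given, so a longer time since Pam3CSK4 cannot be told apart from IFN-gamma in this term. With all libraries the interaction was called for 7 members, 3 higher and 4 lower, against 8.01% of all tested genes in each direction. Higher and lower here give the sign of the effect with IFN-gamma minus the effect without it, not its size. The 3 with a positive difference were Hspa4l, Dnajb4 and Dnajb13, the last of which passed the filter through Control alone and had 4 and 3 counts after Pam3CSK4. In Dnajb4 and Dnajb13 the positive sign marks a fall after Pam3CSK4 alone that was smaller or not called with IFN-gamma. The 4 with a negative difference were Dnajb11, Dnajc25, Hspa5 and Hspe1. For Dnajc25 a fall was called with IFN-gamma and not without it. Without the 3 libraries all 7 kept their call and direction, and 6 members were called higher and 8 lower, against 14.6% and 13.7% of all genes. For Hspa1a the interaction was 3.56 ± 1.49 (adjusted p = 0.135) with all libraries and 1.77 without the 3 (adjusted p = 0.328), and edgeR called neither. DESeq2 and limma called it with all libraries. Hspa1a passed the filter through combined libraries alone, so these values are a description.

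**Figure D4:**
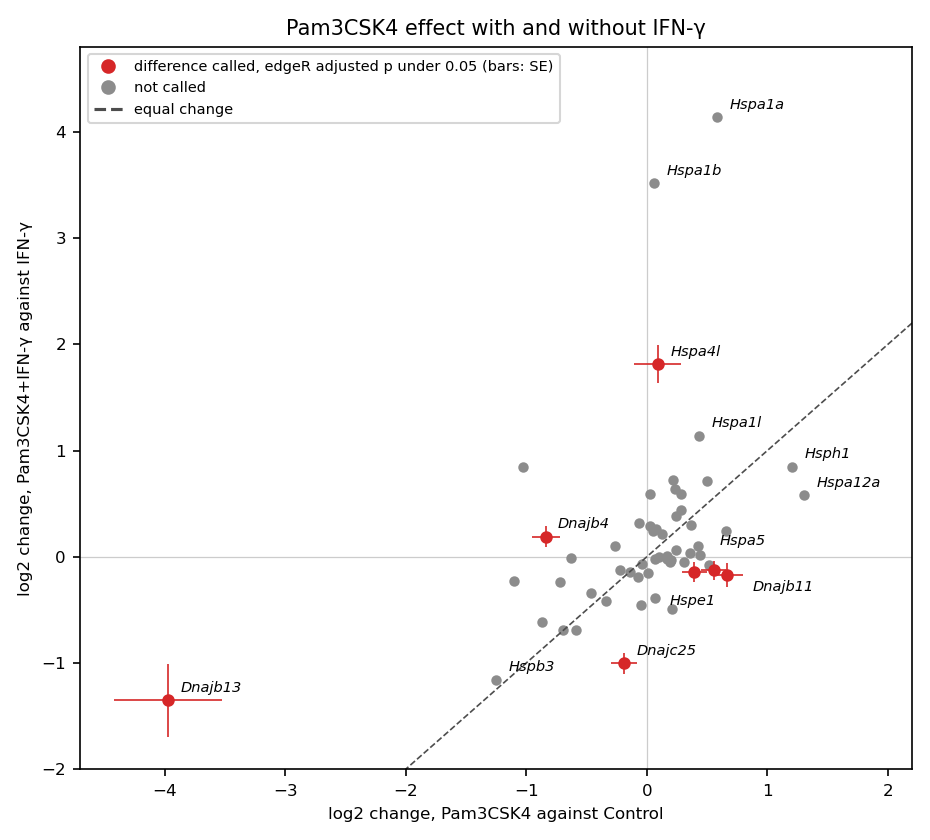
Log2 change of each member between Pam3CSK4 and Control (x axis) and between the combined group and IFN-gamma (y axis), which share no library, with the 7 called interactions in red with SE bars and equal change on the dashed line. Hspa4l changed by 1.81 with IFN-gamma and 0.09 without it, and Hspa5, Dnajb11 and Hspe1 lie below the line. Hspb8, at 0 in most libraries, is not drawn.

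The HSP90 genes and the other chaperone systems gave a setting for these values. Hsp90ab1, the constitutive cytosolic HSP90, measured 262, 249 and 251 FPKM in combined libraries, 227, 258 and 261 FPKM after IFN-gamma, 266 and 272 FPKM after Pam3CSK4 and 156, 166 and 255 FPKM in Control. It rose by 0.49 after IFN-gamma (adjusted p = 0.0188) and 0.48 after Pam3CSK4 (adjusted p = 0.0305). The inducible Hsp90aa1 measured 46.0, 43.6 and 49.8 FPKM in combined libraries, 29.9, 29.9 and 25.4 FPKM after IFN-gamma, 56.2 and 44.5 FPKM after Pam3CSK4 and 20.3, 17.8 and 54.0 FPKM in Control, where replicate 3 again stood above the others. Hsp90b1 measured 172, 165 and 164 FPKM in combined libraries, below its 226, 230 and 206 FPKM after IFN-gamma. It measured 207 and 185 FPKM after Pam3CSK4 and 162, 171 and 220 FPKM in Control. In the list of 18 HSP90 genes and co-chaperones, 7 were higher and 0 lower after Pam3CSK4, and 7 higher and 4 lower after IFN-gamma. Over all tested genes 20.0% were higher and 21.4% lower after Pam3CSK4, and 20.0% and 21.6% after IFN-gamma. Leaving out the 3 libraries, 10 of the list were higher and 1 lower after Pam3CSK4 (background 26.3% and 27.4%), and 9 higher and 4 lower after IFN-gamma (22.9% and 24.3%). The median change of the list with all libraries was 0.27 and 0.17, against -0.04 and -0.07 over all tested genes.

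Of 25 tested genes of ER folding and the unfolded protein response, 12 were higher and 1 lower after Pam3CSK4, and 9 higher and 4 lower after IFN-gamma, against the same backgrounds. Leaving out the 3 libraries, 15 were higher and 2 lower after Pam3CSK4, and 10 higher and 5 lower after IFN-gamma. The median change with all libraries was 0.39 after Pam3CSK4 and 0.12 after IFN-gamma. Among them Manf, a secreted ER stress protein, rose by 1.07 after Pam3CSK4 (adjusted p = 0.00129) and by 1.70 after IFN-gamma (adjusted p = 5.56e-05), and Calr, the lectin chaperone calreticulin, by 0.41 and 0.80. The interaction was called lower for 8 of the 25 and higher for 1, the sensor gene Ern1, against 8.01% of all tested genes in each direction. Of 14 genes of the CCT chaperonin and prefoldin, 7 were higher and 1 lower after Pam3CSK4 and 2 higher and 1 lower after IFN-gamma. Without the 3 libraries these became 10 and 1 after Pam3CSK4 and 9 and 1 after IFN-gamma. Of the 12 exchange factors and regulators of HSP70, 5 were higher and 1 lower after Pam3CSK4 and 1 higher and 1 lower after IFN-gamma, Hyou1, the ER exchange factor of Hspa5, rising by 1.19 after Pam3CSK4 (adjusted p = 0.000356). Of 8 mitochondrial proteases, 2 were higher and 0 lower after Pam3CSK4 and 4 higher and 1 lower after IFN-gamma. Leaving out the 3 libraries, the exchange factors and regulators had 5 higher and 1 lower after Pam3CSK4 and 2 higher and 1 lower after IFN-gamma, and the proteases 3 higher and 0 lower and 4 higher and 0 lower. All of these lists stand beside the shares of all tested genes given for the HSP90 list. In the HSP90 list the interaction was called lower for 6 of 18 and higher for 1. Of the 8 proteases it was lower for 3. No CCT, prefoldin, exchange factor or regulator gene had a called interaction. Without the 3 libraries the lower interaction calls numbered 10 in the HSP90 list, 7 for CCT and prefoldin and 7 in the ER list. The proteases had 3 and the exchange factors and regulators 1. Higher calls were 1 and 2 in the HSP90 and ER lists (backgrounds 14.6% higher and 13.7% lower).

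Of the 3 tested heat shock factor genes, Hsf1, Hsf2 and the inhibitor Hsbp1, 2 were higher after Pam3CSK4, and Hsbp1 rose by 0.48 after IFN-gamma (adjusted p = 0.0131). Hsf2 was 9.41, 8.72 and 8.49 FPKM in combined libraries, 5.53, 5.20 and 4.11 FPKM after IFN-gamma, 9.54 and 10.4 FPKM after Pam3CSK4 and 5.47, 6.53 and 5.51 FPKM in Control. Every library that had received Pam3CSK4 exceeded every library that had not. The log2 change was 0.75 after Pam3CSK4 (adjusted p = 0.00307) and 0.84 for combined against IFN-gamma (adjusted p = 0.00126). Hsf1, the main factor of the heat shock response, rose by 0.37 after Pam3CSK4 (adjusted p = 0.00984).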

How the data were processed

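Per the file headers, the table that the authors deposited pairs a count with an FPKM for every gene and library. The submitters' processing notes name mm10, Cuffdiff, Cufflinks 2.1.1 and TopHat2 2.1.0 without their roles. Which tool counted, whether it used strand and what it did with shared reads is not given in the sources used here. The deposited counts were tested with edgeR 4.0.16 (quasi-likelihood, TMM scaling, R 4.3.3) in 1 fit of 4 group means over all 11 libraries, on the 10938 genes that reached 1 FPKM in 2 or more libraries, with two-sided tests and Benjamini-Hochberg adjustment over all of them at 0.05. The SE is the size of the log2 change over the root of its F statistic. Deposited FPKM values are shown as levels. The script was tested on simulated data. DESeq2 1.42.0, limma 3.58.1 on log2(FPKM + 1), other scalings and filters, the replicate block and each library left out were alternatives, 19 in all. Named genes were the 5 largest called rises and 5 largest falls per comparison and a panel of common chaperones, and the other members were added so that each is accounted for. Members and lists were chosen with earlier results of these data known. Promoter sequences are RefSeq's, on GRCm38.p6. In the combined group, 2 replicates have a different digit ending the ligand's name in 1 label, which was read as the same ligand. Loci overlap, for example Hspd1 and Hspe1 by 112 bases, and reads in such stretches may not be told apart.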

Additional observations from a re-analysis of the deposited data

Results flagged for a closer look

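For 7 members the Pam3CSK4 effect differed with and without IFN-gamma by the interaction term of edgeR. The effect with IFN-gamma minus the effect without it was positive for Hspa4l (1.72), Dnajb4 (1.03) and Dnajb13 (2.62). In Dnajb4 and Dnajb13 the positive sign marks a fall after Pam3CSK4 alone that was smaller or not called with IFN-gamma. Dnajb13 passed the filter through Control alone and had 4 and 3 counts after Pam3CSK4, so its value is a description. The difference was negative for Dnajb11 (-0.84), Dnajc25 (-0.82), Hspa5 (-0.68) and Hspe1 (-0.53). For Dnajc25 a fall was called with IFN-gamma and not without it. No group had enough libraries for a test of single outlying samples.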

How the results depend on the processing

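Over the alternatives, 159 of 190 counts of called members stayed within 1.5 times the value given. Without the 3 libraries with Acta2 of at least 5 FPKM, 19 members were higher after Pam3CSK4 against Control, 7 higher and 2 lower in the combined group against Pam3CSK4, and 6 higher and 8 lower in the interaction. Without the filter on low values, 3 members were lower after Pam3CSK4, 4 lower after IFN-gamma and 3 lower in the combined group against IFN-gamma. Members higher in the combined group against Pam3CSK4 numbered 1 with total-count scaling (chosen after seeing the data), 7 with DESeq2 and 5 with limma, which called 5 interactions higher. With the replicate block 5 interactions were higher. Replicate numbers showed no steady pairing, with 6 of 15 same-numbered pairs correlated above 0.1 and r from -0.671 to 0.629. This check cannot exclude pairing, since libraries with Acta2 also correlated across numbers (r = 0.763 for Control replicate 3 and IFN-gamma replicate 1). Leaving out 1 library in turn gave 4 to 18 members higher and 4 to 8 lower after Pam3CSK4, 8 to 19 higher and 6 to 9 lower after IFN-gamma, 7 to 16 higher and 2 to 9 lower in the combined group against IFN-gamma, 1 to 7 higher and 0 to 2 lower against Pam3CSK4, and 2 to 6 higher and 1 to 8 lower in the interaction. Where a group kept 1 library, it was assumed to vary like the others. The sign changed with a call for Hspb1 after Pam3CSK4 without the 3 libraries (3.00), and after IFN-gamma without them for Hspa9 (0.41) and Hsph1 (0.27). With 1 library left out, the change after IFN-gamma was -0.31 to 0.42 for Hspa9 and -0.29 to 0.31 for Hsph1, and the Hspa9 interaction -0.38 to 0.36, with the sign turned and a call made without Control replicate 3. Pam3CSK4 had 2 libraries, which limits every comparison with it, and low members such as Dnajb13 rest on few counts. The cause of these changes was not tested.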
